A study of Mus musculus with 9 samples.

Results

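The genes described here are the enzymes and transporters of glycolysis, together with genes that control or are induced by the hypoxia-inducible factors (HIF). They were taken by name from a list of 42 mouse genes, of which 41 were among the 10762 genes of the deposited expression table. Ankrd37 was not analysed here. Glycolysis splits glucose into pyruvate in a preparatory phase that spends ATP and a pay-off phase that returns it, and fast-growing tumour cells often run it at a high rate and export the product as lactate. HIF-1 is a transcription factor whose alpha subunit is hydroxylated by oxygen-dependent prolyl hydroxylases and then removed through the VHL ubiquitin ligase. When oxygen is scarce the subunit persists and induces glucose transporters, glycolytic enzymes, angiogenic factors and mitophagy receptors.

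The libraries came from B16.SIY, a mouse melanoma line of the C57BL/6 strain. Its cells express a fusion of dsRED with SIY, a model antigen, and were grown in serum-supplemented DMEM with no low-oxygen treatment named. All 3 groups were infected with shRNA lentivirus and kept as stable lines after puromycin selection, so the control line carried a vector and a selection too. The groups were control shRNA, Decr2 shRNA1 and Decr2 shRNA2, with 3 RNA-seq libraries each, numbered 0, 1 and 2 in the sample titles. Decr2 encodes a peroxisomal 2,4-dienoyl-CoA reductase of fatty acid oxidation. Each group was 1 selected line. The series title speaks of tumors, while the labels describe the cultured line, and they do not call the libraries of a group separate cultures. The p-values therefore measure the spread between libraries, which may be technical.

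Values are the deposited log2 expression values, and their linear form summed to between 969465 and 1045849 per library. Read depth is unknown. Decr2 itself stood at 3.96, 4.10 and 3.71 in the control libraries 0, 1 and 2, at 2.87, 2.51 and 3.18 with shRNA1, and at 0.84, 1.18 and 1.55 with shRNA2. It fell by 1.07 with shRNA1 (limma, adjusted p = 0.0195) and by 2.73 with shRNA2 (limma, adjusted p = 0.000568) on the log2 scale. All 11 melanocyte markers looked for were in the table, and none of 12 leukocyte, 5 epithelial or 4 erythroid markers was, with 2 of 7 fibroblast and 1 of 5 endothelial markers present. The libraries numbered 0 stood apart from those numbered 1 and 2 in all 3 groups, with 23.6% of all genes called in that contrast, so results are given with and without them. Both hairpins were compared with the same 3 control libraries.

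Most of the glycolysis and HIF genes were not called against control in either hairpin line, and those that were went in both directions. Vegfa and Gbe1 rose with each hairpin, Slc2a1 and Ak4 fell with each hairpin, and Bnip3l rose with shRNA1 and in the average of both hairpins. A gene was called when its adjusted p in limma, over all genes of the table, was under 0.05. Of the 41 members, 2 were called higher with each hairpin and 2 lower with each, as were 4.54% and 3.01% of all genes. With shRNA1, 3 members were higher and 2 lower, where 6.92% and 5.49% of all genes were called in those directions. With shRNA2, 2 were higher and 2 lower, against 7.27% and 5.67% of all genes. For the average of both hairpins, 3 were higher and 2 lower, against 9.69% and 7.89% of all genes. The called share of the members was 12.2% with shRNA1, 9.76% with shRNA2 and 12.2% for both. Of all genes, 12.4%, 12.9% and 17.6% were called in either direction. In this fit the members were thus not called more often than genes at large. That does not extend to other fits. With the library number as a block, 6 members were higher and 9 lower for both hairpins, against 16.2% and 14.1% of all genes. Counts without the libraries numbered 0 are given below. The median member differed from control by -0.08 on the log2 scale in the average of both hairpins, beside 0.00 for all genes.

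Members whose libraries did not overlap those of control were counted as well. With shRNA1, 6 members lay wholly above control and 8 wholly below, beside 17.3% and 16.6% of all genes. With shRNA2 the counts were 9 and 11, beside 20.1% and 18.7% of all genes. Taking the 6 hairpin libraries together, 5 members lay above all control libraries, beside 12% of all genes, and 4 below, beside 10.9%. The 5 were Vegfa, Gbe1, Bnip3l, Pfkm and Pfkfb4, and the 4 were Slc2a1, Ak4, Pgk1 and Ldha.

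**Figure D1:**
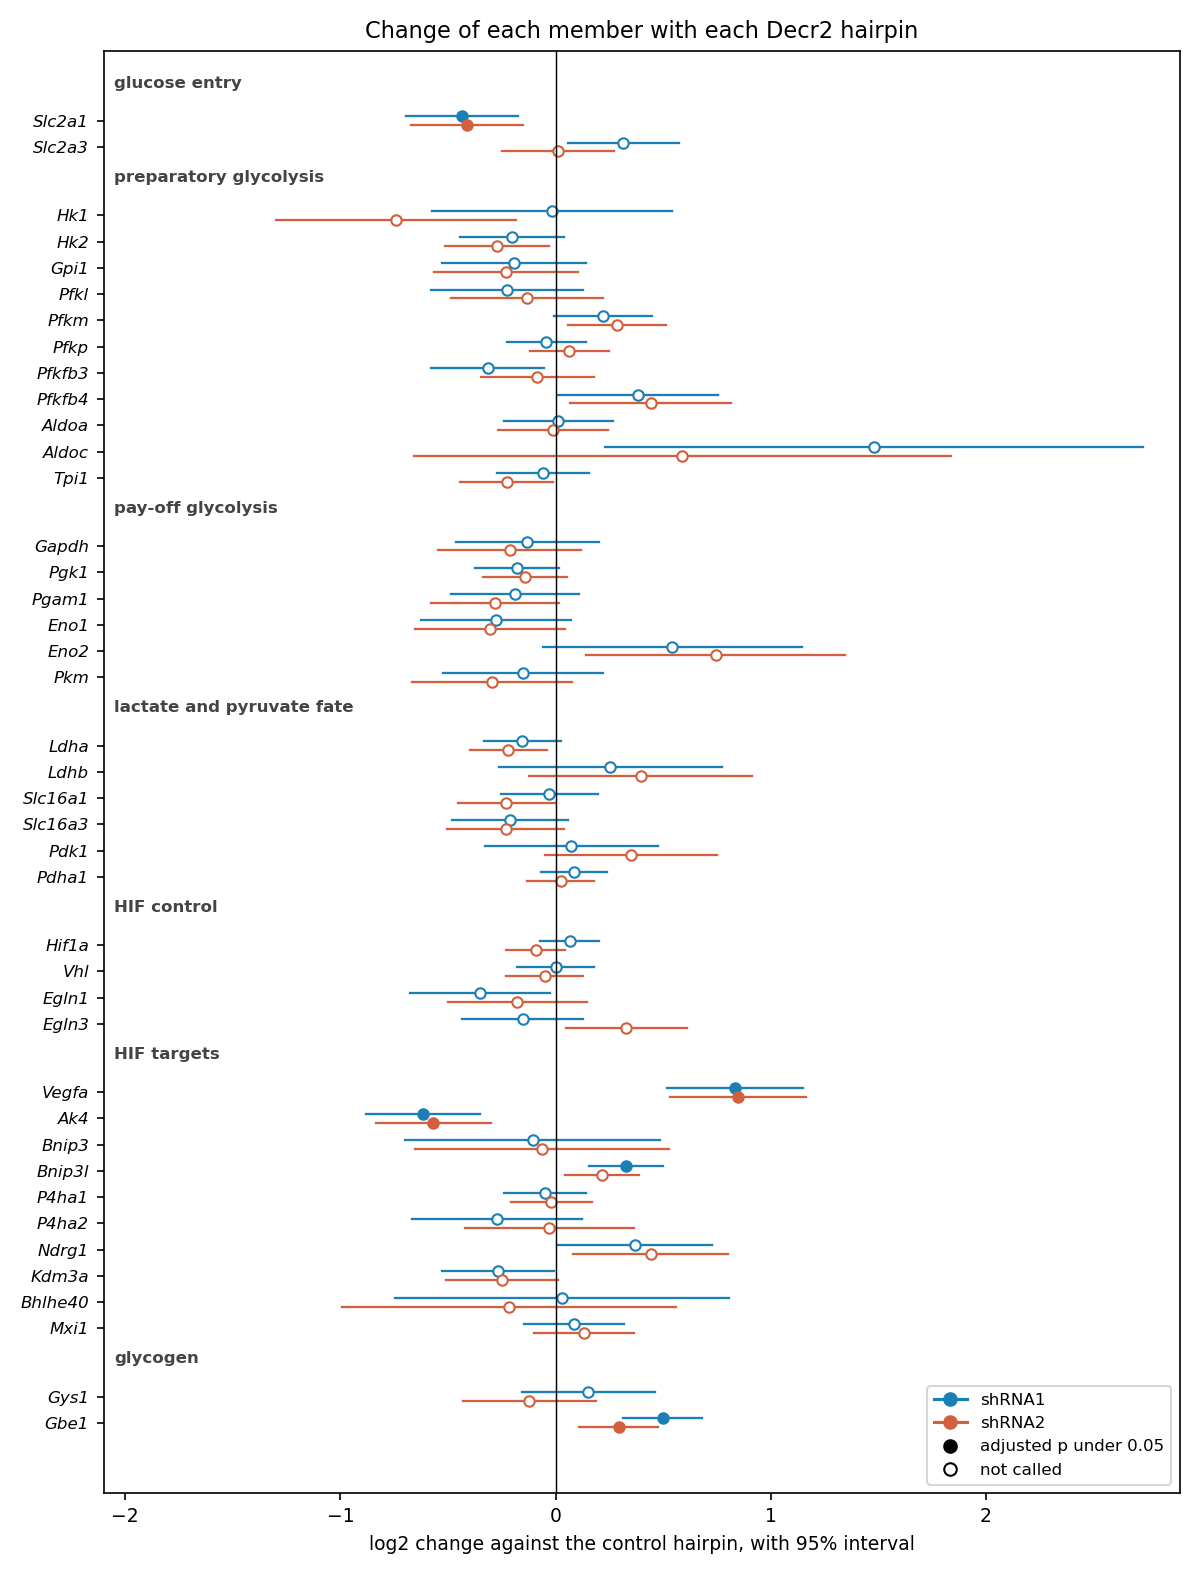
Difference of each hairpin line from control (log2, x axis) for each of the 41 members, grouped by role (y axis); points are limma estimates with 95% confidence intervals, colour gives the hairpin, and filled points have an adjusted p under 0.05. Filled points are Slc2a1 and Ak4 below 0 and Vegfa and Gbe1 above 0 for both hairpins, and Bnip3l for shRNA1, while Aldoc with shRNA1 lies farthest to the right as an open point.

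Among the HIF targets, Vegfa had the largest called rise. It encodes the main angiogenic growth factor of hypoxic tissue and lies on chromosome 17, 46016993 to 46032369, minus strand (GRCm38, GENCODE M21; the authors' build is not given in the sources used here). Its log2 value was 5.85, 5.43 and 5.46 in control libraries 0, 1 and 2, 6.27, 6.56 and 6.40 with shRNA1, and 6.60, 6.22 and 6.46 with shRNA2. Every hairpin library lay above every control library. The rise was 0.83 with shRNA1 (SE 0.14, limma adjusted p = 0.00859) and 0.85 with shRNA2 (SE 0.14, limma adjusted p = 0.00753), and the average of both stood 1.79-fold above control. Vegfa was called against control for each hairpin in all 9 fits that left out 1 library, and it stood 0.97 above control without the libraries numbered 0.

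Bnip3l, a mitophagy receptor of the outer mitochondrial membrane, lies on chromosome 14, 66985239 to 67008877, minus strand. It stood at 6.95, 7.04 and 7.10 in control libraries 0, 1 and 2, at 7.37, 7.31 and 7.40 with shRNA1, and at 7.31, 7.30 and 7.13 with shRNA2. The hairpin libraries again lay above all control libraries, by little in library 2 of shRNA2. It rose by 0.33 with shRNA1 (SE 0.08, limma adjusted p = 0.0261) and by 0.27 in the average of both hairpins (SE 0.07, limma adjusted p = 0.0231). The shRNA2 difference of 0.22 was not called (limma adjusted p = 0.0971). For the average the call was lost without control library 0, 1 or 2 or shRNA2 library 1 (limma adjusted p = 0.079, 0.0902, 0.0646 and 0.0535). For shRNA1 it was lost without control library 0, 1 or 2 or shRNA1 library 1 or 2 (limma adjusted p = 0.0678, 0.0928, 0.0696, 0.0503 and 0.0817). The shRNA1 call was also lost with control and shRNA1 alone in the fit (limma adjusted p = 0.0504). Bnip3l stood 0.21 above control without the libraries numbered 0 (limma adjusted p = 0.0228).

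Glucose transporters, which HIF-1 also induces, were grouped apart as glucose entry. Among the genes grouped as HIF targets, Ak4, a mitochondrial adenylate kinase, was the one called lower. It lies on chromosome 4, 101419277 to 101466995, plus strand. Its log2 values were 6.19, 5.99 and 5.75 in control libraries 0, 1 and 2, 5.25, 5.51 and 5.32 with shRNA1, and 5.46, 5.44 and 5.33 with shRNA2. All 6 hairpin libraries lay below the lowest control library. Ak4 fell by 0.61 with shRNA1 (SE 0.12, limma adjusted p = 0.0134) and by 0.57 with shRNA2 (SE 0.12, limma adjusted p = 0.0172), and the average of both hairpins stood at 66.4% of control (95% confidence interval 56.6% to 77.9%). The average was called in all 9 fits that left out 1 library and stood at -0.47 without the libraries numbered 0. The shRNA1 call was lost without control library 1 (limma adjusted p = 0.0593), and the shRNA2 call without control library 1 or shRNA2 library 1 or 2 (limma adjusted p = 0.0681, 0.059 and 0.0668).

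The other genes grouped as HIF targets were not called in any hairpin comparison. They were Bnip3, a second mitophagy receptor, P4ha1 and P4ha2, collagen prolyl hydroxylase subunits, Ndrg1, Kdm3a, a histone demethylase, Bhlhe40, a repressor of the clock family, and Mxi1, an antagonist of Myc. Their average differences from control ran from -0.26 for Kdm3a (limma adjusted p = 0.103) to 0.40 for Ndrg1 (limma adjusted p = 0.0734). Of all 10 genes grouped as HIF targets in the table, 2 were higher and 1 lower in the average of both hairpins. Of all genes, 9.69% and 7.89% were.

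At glucose entry, Slc2a1 fell with each hairpin. It encodes GLUT1, the glucose transporter most widely expressed in growing cells, on chromosome 4, 119108711 to 119137983, plus strand. Its log2 value was 6.44, 6.35 and 6.26 in control libraries 0, 1 and 2, 5.81, 5.94 and 5.99 with shRNA1, and 6.18, 5.90 and 5.73 with shRNA2. The highest hairpin library, library 0 of shRNA2, lay just below the lowest control library. Slc2a1 was left at 74.0% of control with shRNA1 (log2 difference -0.43, limma adjusted p = 0.0406) and at 75.2% with shRNA2 (log2 difference -0.41, limma adjusted p = 0.0468). The average of both hairpins was -0.42 (SE 0.10, limma adjusted p = 0.0203). Without control library 0, 1 or 2 the average was no longer called (limma adjusted p = 0.0705, 0.0858 and 0.0589). The shRNA1 call survived the loss of library 0 or 2 of shRNA2 and no other library (limma adjusted p up to 0.127), and the shRNA2 call survived the loss of library 0 of either hairpin line and no other (limma adjusted p up to 0.146). Without the libraries numbered 0 the average difference was -0.41. Without an intensity trend in the fit neither single-hairpin call held (limma adjusted p = 0.0529 and 0.0594), nor did the shRNA2 call with control and shRNA2 alone in the fit (limma adjusted p = 0.0503). Slc2a3, which encodes the high-affinity transporter GLUT3, differed by 0.31 with shRNA1 and 0.01 with shRNA2 (limma adjusted p = 0.109 and 0.964). With the library number as a block, Slc2a3 was called with shRNA1 (limma adjusted p = 0.0441).

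Gbe1, the glycogen branching enzyme, rose with each hairpin. It lies on chromosome 16, 70313949 to 70569716, plus strand. It stood at 6.16, 5.99 and 6.04 in control libraries 0, 1 and 2, at 6.52, 6.57 and 6.61 with shRNA1, and at 6.49, 6.32 and 6.28 with shRNA2. All hairpin libraries lay above all control libraries, and the shRNA1 libraries were the highest. The rise was 0.50 with shRNA1 (SE 0.08, limma adjusted p = 0.0077) and 0.29 with shRNA2 (SE 0.08, limma adjusted p = 0.0455). The shRNA1 call held in all 9 fits that left out 1 library. The shRNA2 call held without library 0 of control or of shRNA1 and was lost without any other library (limma adjusted p up to 0.165). The shRNA2 call was also lost with libraries centred on their medians or without an intensity trend (limma adjusted p = 0.0503 and 0.059). The average of both hairpins was 0.43 without the libraries numbered 0. Gys1, the muscle-type glycogen synthase, differed by 0.15 with shRNA1 and -0.12 with shRNA2 (limma adjusted p = 0.499 and 0.608).

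**Figure D2:**
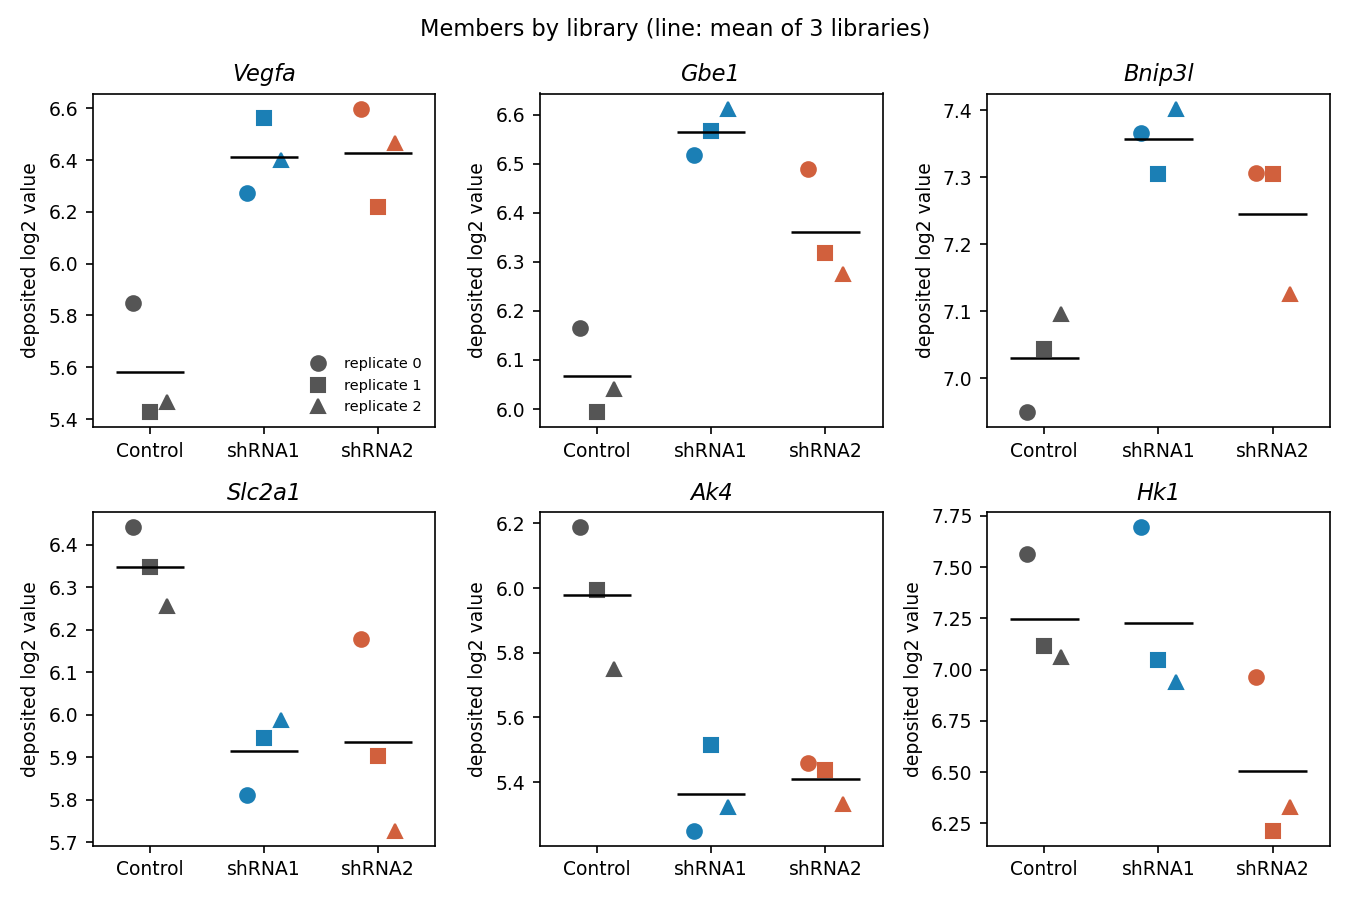
Deposited log2 expression (y axis) of Vegfa, Gbe1, Bnip3l, Slc2a1, Ak4 and Hk1 in each library by group (x axis); marker shape gives the library (replicate) number and the line the group mean of 3 libraries. Vegfa, Gbe1 and Bnip3l lie higher and Slc2a1 and Ak4 lower in both hairpin lines, and Hk1 lies lower in the shRNA2 line with library 0 the highest of each group.

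Because Slc2a1 and Ak4 fell and Vegfa and Gbe1 rose with both hairpins, the bases around and before their start sites are shown for comparison. They are RefSeq sequences of GRCm38.p6, printed 5' to 3' on the gene's strand, from windows of 250 bases before the outermost RefSeq start. The Slc2a1 and Ak4 windows are printed to the fifth base of the gene as GENCODE starts it, upstream of the RefSeq start. The core of the hypoxia response element was searched as ACGTG and GCGTG on both strands, and capitals mark each match in either orientation. The 6-base E-box CACGTG contains ACGTG and lies in 6.02% of all windows. The Slc2a1 window is chr4:119108495-119108715 on the plus strand, and it holds 1 ACGTG, which spans the GENCODE start, and 1 GCGTG. The Ak4 window is chr4:101419039-101419281 on the plus strand and holds GCGTG at 2 places. The Vegfa window is chr17:46032378-46032627 on the minus strand, the Gbe1 window is chr16:70313699-70313948 on the plus strand, and neither holds a core. A second RefSeq window of Vegfa, before a start inside the gene (chr17:46025164-46025413, minus strand), holds 1 ACGTG and 1 GCGTG. The further RefSeq windows of Ak4 hold a core too, and Slc2a1 and Gbe1 have no further window. Among those of Ak4, chr4:101419453-101419702 holds 2 ACGTG, with 1 E-box. Whether these letters go with the direction of change was not tested. Of the members, 37 had a RefSeq window, and Slc2a3, Ndrg1, Bhlhe40 and Bnip3l had none. At least 1 core lay in 43 of the 58 windows of the members (74.1%) and in 38.6% of all 32851 windows. These matches describe letters in the windows, and bases outside the windows were not searched.
Slc2a1: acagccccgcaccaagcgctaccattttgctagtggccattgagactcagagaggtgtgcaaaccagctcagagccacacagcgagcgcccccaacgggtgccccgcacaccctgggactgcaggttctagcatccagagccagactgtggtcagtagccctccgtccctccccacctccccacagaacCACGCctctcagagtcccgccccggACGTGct
Ak4: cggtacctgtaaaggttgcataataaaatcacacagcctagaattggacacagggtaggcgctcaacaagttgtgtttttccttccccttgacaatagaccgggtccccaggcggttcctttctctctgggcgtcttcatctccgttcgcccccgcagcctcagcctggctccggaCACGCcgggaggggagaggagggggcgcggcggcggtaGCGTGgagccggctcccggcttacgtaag
Vegfa: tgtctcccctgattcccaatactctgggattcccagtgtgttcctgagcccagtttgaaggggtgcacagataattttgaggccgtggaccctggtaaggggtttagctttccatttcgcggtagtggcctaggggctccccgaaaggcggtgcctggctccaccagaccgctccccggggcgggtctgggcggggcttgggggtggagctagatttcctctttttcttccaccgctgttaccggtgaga
Gbe1: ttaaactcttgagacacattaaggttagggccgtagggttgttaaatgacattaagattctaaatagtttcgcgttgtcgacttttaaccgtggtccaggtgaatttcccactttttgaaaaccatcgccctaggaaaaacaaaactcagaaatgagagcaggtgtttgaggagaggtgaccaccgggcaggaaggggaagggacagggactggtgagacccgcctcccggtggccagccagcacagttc

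None of the 11 preparatory-phase genes was called in a hairpin comparison. They were Hk1 and Hk2, hexokinases, Gpi1, the isomerase that follows them, the phosphofructokinases Pfkl, Pfkm and Pfkp, the regulators Pfkfb3 and Pfkfb4, the aldolases Aldoa and Aldoc, and Tpi1, triosephosphate isomerase. Average differences ran from -0.38 for Hk1 to 1.03 for Aldoc, and 5 of the 11 were positive. Tpi1, Aldoa and several pay-off enzymes have processed pseudogenes, and how reads were shared between such copies is not given in the sources used here.

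Hk1 had the average difference farthest below 0 in this phase. It encodes the hexokinase bound to mitochondria in most tissues (chromosome 10, 62268855 to 62379908, minus strand), and stood at 7.56, 7.11 and 7.06 in control libraries 0, 1 and 2. With shRNA1 it was at 7.70, 7.05 and 6.94, and with shRNA2 at 6.96, 6.22 and 6.33. All shRNA2 libraries lay below all control libraries, while shRNA1 overlapped control, and library 0 was the highest in each group. The shRNA2 difference was -0.74 (SE 0.25, limma adjusted p = 0.0816), and shRNA1 stood at -0.02 (limma adjusted p = 0.968). With the library number as a block the shRNA2 difference was called (SE 0.08, limma adjusted p = 0.00102), as was the average of both hairpins (limma adjusted p = 0.00449). Without the libraries numbered 0 the average was -0.45 (limma adjusted p = 0.000561).

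Aldoc, the brain-type aldolase, had the largest average difference from control. It stood at 3.75, 2.15 and 3.11 in control libraries 0, 1 and 2, at 5.35, 3.96 and 4.15 with shRNA1, and at 4.66, 2.89 and 3.23 with shRNA2. All shRNA1 libraries lay above control, the shRNA2 libraries overlapped control, and every same-numbered hairpin library was above its control. The difference was 1.48 with shRNA1 and 0.59 with shRNA2 (limma adjusted p = 0.117 and 0.532). With the library number as a block both were called (limma adjusted p = 0.000969 and 0.0322), and so was the average of 1.03 (limma adjusted p = 0.00158). Pfkfb3, the bifunctional enzyme that makes the phosphofructokinase activator, was called lower with shRNA1 and in the average only with the block (limma adjusted p = 0.0174 and 0.0452).

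The 6 pay-off enzymes were not called in any hairpin comparison either. They were Gapdh, Pgk1, Pgam1, Eno1, Eno2 and Pkm, which run from glyceraldehyde phosphate to pyruvate, and 5 of the 6 had averages below 0, from -0.16 for Pgk1 to -0.29 for Eno1. Eno2, the neuronal enolase, was the exception in direction. It stood at 3.83, 3.55 and 3.16 in control libraries 0, 1 and 2, at 4.45, 4.09 and 3.63 with shRNA1, and at 4.74, 3.96 and 4.08 with shRNA2. All shRNA2 libraries lay above control, while library 2 of shRNA1 overlapped control. The average difference was 0.64 (SE 0.23, limma adjusted p = 0.0855), and with the library number as a block it was called for shRNA1, shRNA2 and both (limma adjusted p = 0.0166, 0.00513 and 0.00383). The block also called Pgam1 lower with shRNA2 and in the average (limma adjusted p = 0.0359 and 0.0342), Pkm lower with shRNA2 (limma adjusted p = 0.0453), and Eno1 lower in the average (limma adjusted p = 0.0395).

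The lactate and pyruvate genes were Ldha and Ldhb, the lactate dehydrogenase subunits, Slc16a1 and Slc16a3, the lactate transporters MCT1 and MCT4, Pdk1, the kinase that holds pyruvate dehydrogenase inactive, and Pdha1, a subunit of that dehydrogenase. None of the 6 was called in a hairpin comparison. Ldhb, with the largest average difference, stood at 7.64, 7.35 and 7.41 in control libraries 0, 1 and 2, at 8.30, 7.40 and 7.47 with shRNA1, and at 8.16, 7.76 and 7.67 with shRNA2. The shRNA1 libraries overlapped control and the shRNA2 libraries lay above it. The average was 0.32 (SE 0.20, limma adjusted p = 0.288). With the library number as a block, Ldhb was called higher with shRNA2 and in the average (limma adjusted p = 0.0419 and 0.0416), Slc16a3 was lower in the same comparisons (limma adjusted p = 0.046 and 0.0266), and Ldha was lower in the average (limma adjusted p = 0.0458).

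The 4 genes of HIF control were Hif1a, the oxygen-regulated subunit, Vhl, and the prolyl hydroxylases Egln1 and Egln3, and none was called. Hif1a differed by -0.01 (SE 0.05, limma adjusted p = 0.887) and Vhl by -0.02 (SE 0.07, limma adjusted p = 0.836) in the average of both hairpins. For Hif1a the hairpins had opposite signs, 0.06 with shRNA1 and -0.09 with shRNA2 (limma adjusted p = 0.52 and 0.359). The shRNA2 libraries lay below all others. Egln3 differed by -0.15 with shRNA1 and 0.33 with shRNA2 (limma adjusted p = 0.456 and 0.116), with the shRNA2 libraries above all others. Egln1 stood at 6.85, 6.59 and 6.55 in control libraries 0, 1 and 2, at 6.38, 6.24 and 6.32 with shRNA1, and at 6.83, 6.33 and 6.30 with shRNA2. All shRNA1 libraries lay below control, while library 0 of shRNA2 was nearly as high as library 0 of control. Its average was -0.26 (SE 0.12, limma adjusted p = 0.172), called with the library number as a block for shRNA1 and for both (limma adjusted p = 0.0244 and 0.0349).

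With the block in the fit, the members called were 6 higher and 4 lower with shRNA1 (13.4% and 11.2% of all genes), 5 higher and 6 lower with shRNA2 (13.4% and 10.6%), and 6 higher and 9 lower for both (16.2% and 14.1%). Libraries of different groups that carried the same number deviated together, which is the basis for this fit. Library 1 of a group and library 2 of another also deviated together, with correlations of 0.128 to 0.531. Only the libraries numbered 0 are set apart by these values, and a match of libraries 1 and 2 by number is not shown. The calls that only the block gave held in all 9 fits that left out 1 library for Hk1 with shRNA2 and in the average (limma adjusted p up to 0.0108 and 0.0459), for Aldoc with shRNA1 and in the average (up to 0.00784 and 0.016), and for Eno2 with shRNA2 and in the average (up to 0.0382 and 0.0271). Each of the other calls that only the block gave was lost in at least 3 of the 9. Of the 22 calls against control that only the block gave, 15 were lost without control library 1, 15 without control library 2, 13 without shRNA2 library 1 and 13 without shRNA2 library 2, with limma adjusted p up to 0.24 for Slc16a3 with shRNA2. Of the members, 34 of 41 had differences of the same sign with both hairpins, which share their control libraries, and the share of all genes was not counted.

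Many glycolytic genes had higher levels in the libraries numbered 0 than in those numbered 1 and 2. With group means removed, 14 members were higher and 0 lower in the libraries numbered 0 (limma, adjusted p under 0.05), where 12.1% and 11.4% of all genes were called. The 14 included 5 of the 6 pay-off enzymes, all but Pgk1, and 4 of the 11 preparatory genes, namely Aldoc, Hk1, Pfkl and Pfkfb3. The other 5 were Ldhb, Slc16a3, Egln1, Bnip3 and Bhlhe40. Libraries did not overlap for 4 members that were higher (Gapdh, Pkm, Bnip3 and Bhlhe40) and for 0 that were lower, beside 8.03% and 6.87% of all genes.

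Aldoc was 1.34 higher in the libraries numbered 0 (SE 0.14, limma adjusted p = 0.00125) and Hk1 0.62 higher (SE 0.07, limma adjusted p = 0.00133). Bhlhe40 stood at 6.96, 6.13 and 6.04 in control libraries 0, 1 and 2, at 6.77, 6.23 and 6.22 with shRNA1, and at 6.93, 5.85 and 5.70 with shRNA2. Library 0 was the highest in each group, and the difference was 0.86 (SE 0.10, limma adjusted p = 0.00167). Bnip3 stood at 8.16, 7.27 and 7.35 in control, at 7.67, 7.42 and 7.38 with shRNA1, and at 8.03, 7.35 and 7.22 with shRNA2. Its difference was 0.62 (SE 0.10, limma adjusted p = 0.00559), with the smallest gap in the shRNA1 line. Aldoc, Hk1, Bhlhe40, Bnip3 and Ldhb were called in all 9 fits that left out 1 library, and Eno2 in all but the one without shRNA2 library 0 (limma adjusted p = 0.0537). Eno1 and Pfkfb3 were called in 1 of the 9 each. Without an intensity trend Pfkl, Egln1 and Eno1 were not called (limma adjusted p = 0.053, 0.0512 and 0.0703). The count of higher members fell to 5 without shRNA2 library 0, to 6 without shRNA2 library 2 and to 9 without shRNA1 library 2. The share of all genes called in these fits was not counted, so whether the fall is particular to the members was not tested.

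The melanocyte markers moved with the same contrast, and 10 of the 11 were higher in the libraries numbered 0. Tyrp1, the exception, differed by 0.19 (limma adjusted p = 0.155), and Rab27a had the largest difference, 0.99 (limma adjusted p = 0.000625). The summed linear level of the 11 markers was 20529, 18131 and 18030 in control libraries 0, 1 and 2, 19960, 13904 and 14163 with shRNA1, and 23870, 14125 and 13796 with shRNA2. None of the 11 was at 0, and none was called in a hairpin comparison without the block. With the library number as a block, 2 were called lower with shRNA2 and 1 in the average of both hairpins. Of all genes, 10.6% and 14.1% were called lower there. Of the fibroblast markers, 2 of 7 were in the table, where Col1a1 was 1.23 higher in the libraries numbered 0 (limma adjusted p = 0.041) and Pdgfrb differed by -0.38 (limma adjusted p = 0.0536). Of 5 endothelial markers only Plvap was in the table, and it differed by -0.45 (limma adjusted p = 0.171). The part of these markers in the difference between library numbers was not tested.

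**Figure D3:**
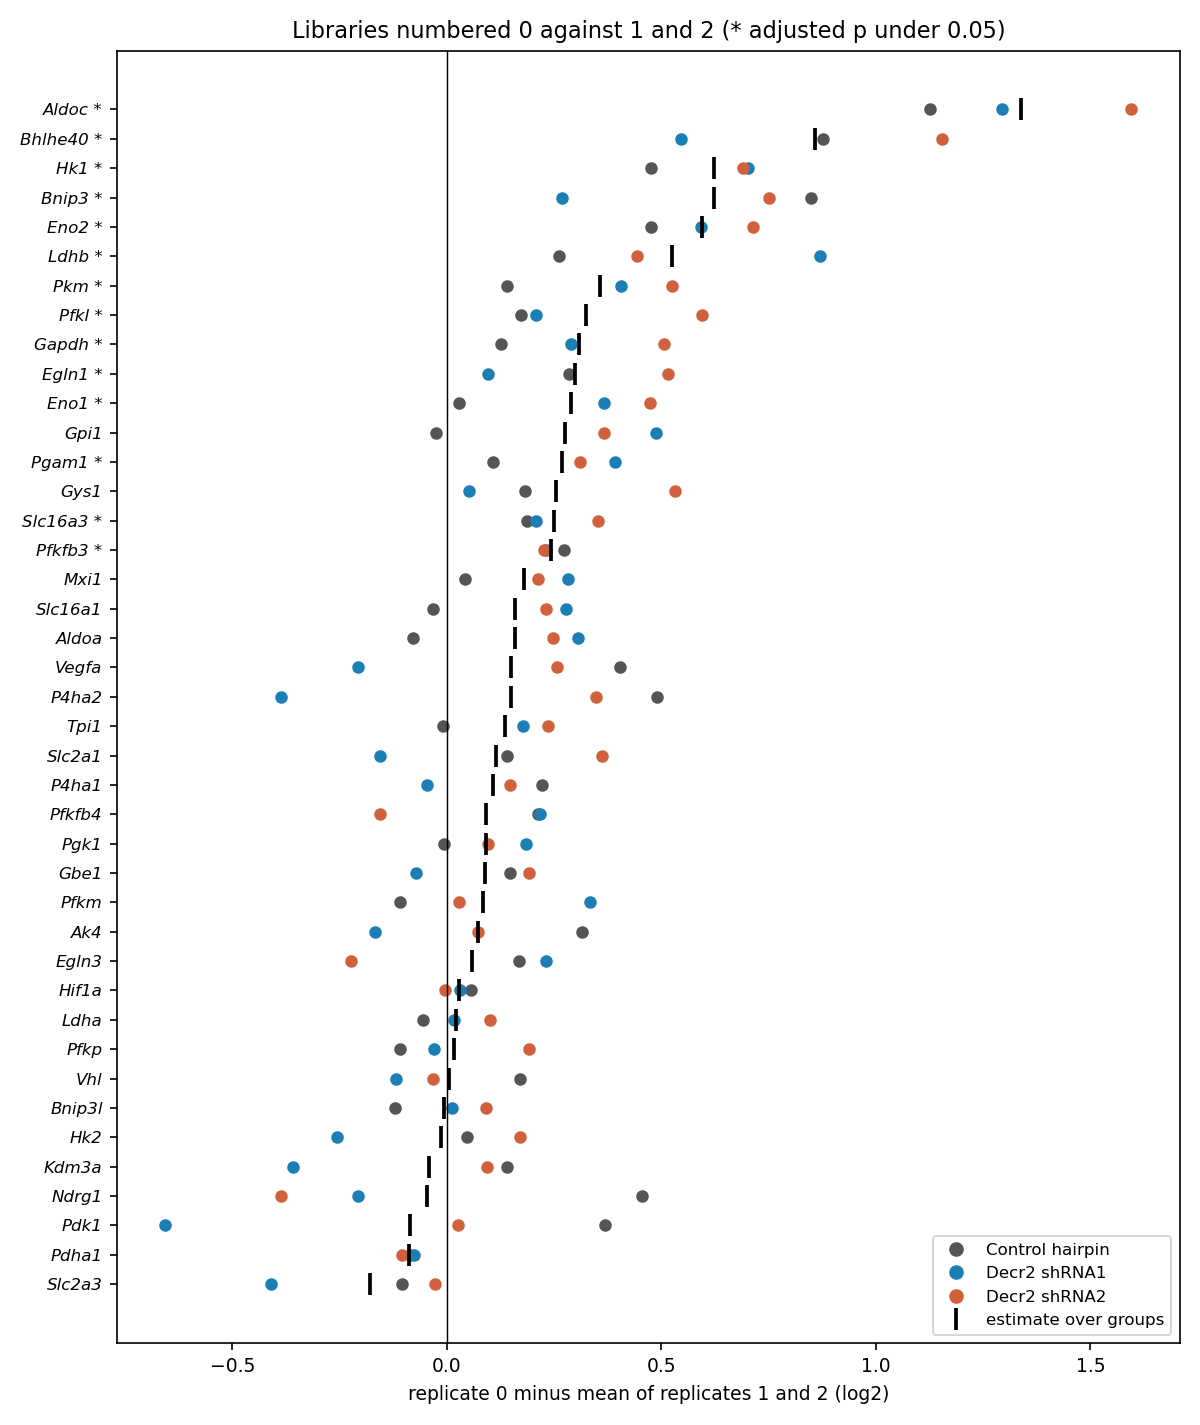
Difference of library 0 from the mean of libraries 1 and 2 (log2, x axis) for each of the 41 members (y axis); points are the 3 groups, vertical ticks the estimate over groups, and stars mark an adjusted p under 0.05. The 14 starred members include 5 of the 6 pay-off enzymes, and Aldoc has the largest difference.

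The hairpin difference in glycolytic enzymes was not alike across library numbers. Between libraries of the same number, the median of the 6 pay-off enzymes with shRNA1 was -0.01 in libraries 0, -0.27 in libraries 1 and -0.21 in libraries 2. With shRNA2 it was -0.02, -0.32 and -0.36. In libraries 1 and 2, 5 of the 6 enzymes were below control with each hairpin, and Eno2 was the one above. Of all 23 preparatory, pay-off and lactate members, 15 were below control in libraries 1 and 2 of both hairpins. Another 6 were above control in all of them, namely Pfkm, Pfkfb4, Aldoc, Eno2, Ldhb and Pdk1, and Pfkp and Pdha1 were mixed. The share of all genes that lay to the same side throughout was not counted, and both hairpins share their control libraries. Whether these counts are particular to the members was therefore not tested.

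Without the libraries numbered 0, with 2 libraries a group, 10 members were higher and 16 lower in the average of both hairpins, where 20.9% and 20.5% of all genes were called. With shRNA1 the counts were 8 and 13 (17.6% and 16.9% of all genes), and with shRNA2 they were 9 and 18 (19.2% and 18.1%). Eno1 stood at 12.16, 12.14 and 12.12 in control libraries 0, 1 and 2, at 12.11, 11.81 and 11.67 with shRNA1, and at 12.15, 11.64 and 11.71 with shRNA2. Libraries 0 lay close together in the 3 groups, and libraries 1 and 2 of both hairpin lines lay lower. The average over libraries 1 and 2 was -0.42 for Eno1 (limma adjusted p = 0.000401), -0.36 for Gpi1 (limma adjusted p = 0.000356), -0.33 for Pkm (limma adjusted p = 0.000347) and -0.26 for Gapdh (limma adjusted p = 0.00101). Pgam1, Ldha, Pgk1, Tpi1 and Pfkl were also called lower, at -0.32 to -0.21. Aldoa went from 0.00 with all libraries to -0.12 (limma adjusted p = 0.0336). On the higher side stood Aldoc (0.93), Ndrg1 (0.65), Eno2 (0.58), Pfkfb4 (0.47) and Pdk1 (0.44). The summed melanocyte markers were lower in libraries 1 and 2 of the hairpin lines than in those of control, by the levels given for them, and their part in these differences was not tested.

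**Figure D4:**
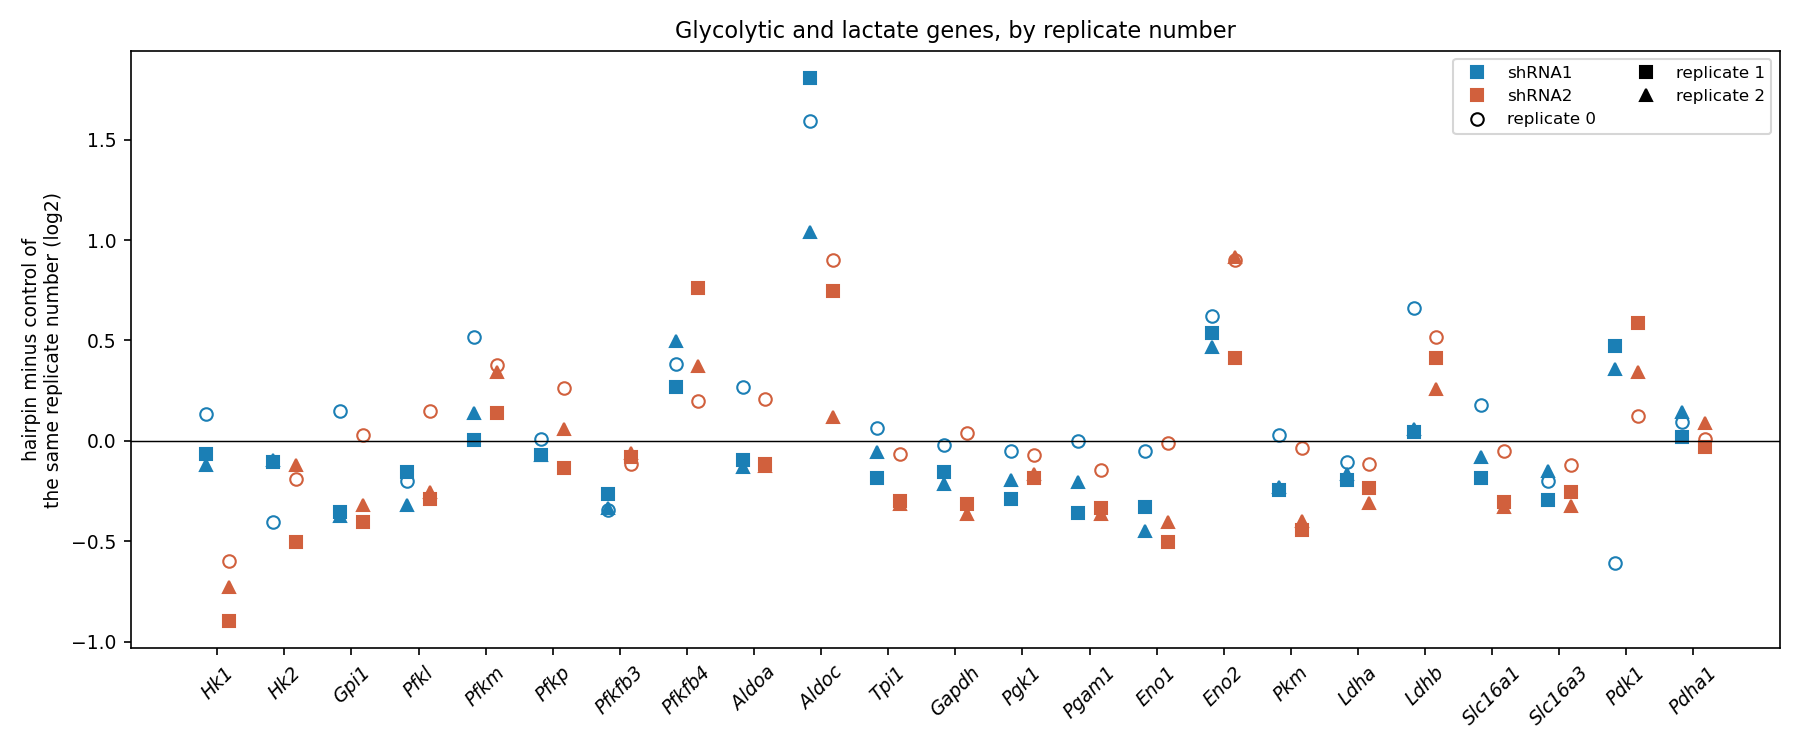
Hairpin minus control within each library number (log2, y axis) for all 23 preparatory, pay-off and lactate members (x axis); colour gives the hairpin and marker shape the library (replicate) number. In libraries 1 and 2, 15 of the 23 genes lie below 0 with both hairpins and 6 above it, and the open circles of library 0 lie nearer to 0 or above it for most of the 15. The share of all genes lying to the same side was not counted.

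That dependence was tested as the hairpin difference in libraries 0 minus that in libraries 1 and 2, a contrast added after the data were seen, with 3 residual degrees of freedom. These come only from library 1 against library 2 within each group. The p-values therefore do not measure the spread of libraries numbered 0, of which each group has 1. By it 6 members were higher and 2 lower, where 2.42% and 2.83% of all genes were called. Gpi1 differed by 0.45 (0.09 in libraries 0 and -0.36 in the others, limma adjusted p = 0.012), Aldoa by 0.36 (0.24 and -0.12, limma adjusted p = 0.0187) and Pkm by 0.33 (-0.01 and -0.33, limma adjusted p = 0.0275). Eno1 differed by 0.39 (-0.03 and -0.42, limma adjusted p = 0.0369), Gapdh by 0.27 (0.01 and -0.26, limma adjusted p = 0.0474) and Ldhb by 0.40 (0.59 and 0.19, limma adjusted p = 0.0369). Pdk1 went the other way by -0.68 (-0.24 and 0.44, limma adjusted p = 0.0101), as did Ndrg1 by -0.75 (-0.10 and 0.65, limma adjusted p = 0.0193). These calls rest on 1 control library numbered 0 and on few others. Without control library 1 none of the 8 was called (limma adjusted p from 0.052 for Pdk1 to 0.168 for Gapdh), and without control library 2 Pdk1 alone was (limma adjusted p = 0.040). Without shRNA1 library 0, where shRNA2 is compared alone, Gapdh, Pkm and Ndrg1 were called. There Ldhb went to 0.18 and Pdk1 to -0.34 (limma adjusted p = 0.456 and 0.234). Without shRNA2 library 0, Gapdh went to 0.16 and Pdk1 to -1.02, Ldhb to 0.61, and Gapdh, Eno1 and Pkm were not called (limma adjusted p = 0.179, 0.0576 and 0.0528). Without shRNA1 library 1, Gapdh and Ldhb were not called (limma adjusted p = 0.0571 and 0.0625), nor was Gapdh without shRNA1 library 2 (limma adjusted p = 0.0597). Calls over all genes also became fewer without control library 1 or control library 2, so the loss was not limited to these members. All 8 differences kept their sign in the 8 fits that left out 1 library.

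No member was called between shRNA2 and shRNA1, where 0.223% of all genes were higher and 0.232% lower by limma. Among the members Egln3 had the smallest adjusted p (limma adjusted p = 0.187). Libraries of the 2 hairpin lines did not overlap for 1 member that was higher with shRNA2 and 3 that were lower, beside 7.72% and 6.68% of all genes. The 95% interval of the difference was -0.30 to 0.33 for Vegfa, -0.24 to 0.28 for Slc2a1 and -0.22 to 0.31 for Ak4. With the library number as a block, Hk1 and Aldoc were lower with shRNA2 (0.827% of all genes higher and 1.04% lower), at -0.72 and -0.89 (limma adjusted p = 0.00838 and 0.0352). The Hk1 call was lost without shRNA1 library 2 or shRNA2 library 1 or 2 (limma adjusted p up to 0.0784), and the Aldoc call held in 3 of 9 such fits, those without control library 0 or 2 or shRNA1 library 0 (limma adjusted p up to 0.205 in the others). Without the libraries numbered 0, 2 members were higher and 6 lower (3.92% and 4.95% of all genes).

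Further genes of the same pathways were taken from lists of their own, and their counts in the average of both hairpins stand beside 9.69% of all genes higher and 7.89% lower. Of 28 further genes of glycolysis and pyruvate metabolism in the table, 1 rose and 1 fell in the average of both hairpins. Pdk2, another pyruvate dehydrogenase kinase, was 0.82 higher (limma adjusted p = 0.026), and Pgam5, a mitochondrial phosphatase named for its resemblance to phosphoglycerate mutase, stood at -0.58 (limma adjusted p = 0.00368). Of 10 pentose phosphate genes 0 rose and 2 fell. Pgd, which oxidises 6-phosphogluconate, stood at -0.43 (limma adjusted p = 0.00504) and Prps2, which makes phosphoribosyl pyrophosphate, at -0.27 (limma adjusted p = 0.0146).

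Of 17 HIF subunits and oxygen-sensing genes, 1 rose and 1 fell. Siah2, a ubiquitin ligase for prolyl hydroxylases, was 0.54 higher (limma adjusted p = 0.00217), and Hsp90aa1, an inducible HSP90 chaperone, stood at -0.53 (limma adjusted p = 0.0445). Of 35 further hypoxia-inducible genes 6 rose and 2 fell, beside 9.69% and 7.89% of all genes. Their average differences ran from -1.54 to 1.41 with a median of 0.02, 20 positive and 15 negative. The 4 named here were picked by adjusted p, and all of them rose. Ddit4, an inhibitor of mTORC1 signalling, stood at 4.87, 4.46 and 4.57 in control libraries 0, 1 and 2, at 5.59, 5.89 and 5.93 with shRNA1, and at 6.31, 6.34 and 6.21 with shRNA2. The 3 groups did not overlap, and its average was 1.41 (SE 0.11, limma adjusted p = 0.000332). Selenbp1 was 0.96 higher (limma adjusted p = 0.000433), Ccng2, an atypical cyclin, 0.63 higher (limma adjusted p = 0.00569) and Pnrc1 0.51 higher (limma adjusted p = 0.0107).

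Of 14 further genes of glycogen metabolism 3 rose and 1 fell in the average of both hairpins, beside 9.69% and 7.89% of all genes. Pygm, the muscle-type glycogen phosphorylase, was 1.56 higher (limma adjusted p = 0.00388), Gyg, the primer of glycogen synthesis, 0.60 higher (limma adjusted p = 0.0236) and Phkg2, a catalytic subunit of phosphorylase kinase, 0.36 higher (limma adjusted p = 0.0284). Pgm2l1, a glucose-1,6-bisphosphate synthase, stood at 2.79, 3.21 and 3.02 in control libraries 0, 1 and 2, at 1.60, 1.33 and 1.43 with shRNA1, and at 2.39, 2.68 and 2.40 with shRNA2. All hairpin libraries were below control, and those of shRNA1 were the lowest. Its average difference was -1.03 (SE 0.15, limma adjusted p = 0.00291).

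In the authors' deposited table, 3 members were higher and 2 lower with shRNA1 at an adjusted p under 0.05, and 2 were higher and 2 lower with shRNA2. All of these were also called here.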

How the data were processed

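RNA-seq libraries of the 3 groups were analysed from 1 table in which the authors deposited log2 expression values per gene and library, with the log2 fold changes, p-values and adjusted p-values of their own comparisons. Per the submitters' processing notes, kallisto, FastQC and limma were used. Versions, the genome build, the annotation, strand handling and any low-value filter: not given in the sources used here. Read depth is unknown, so precision rests on the spread between libraries. The value columns were linked to hairpins through the authors' headed comparisons, whose fold changes the columns gave back within 0.05 for 99.95% (shRNA1) and 99.7% (shRNA2) of genes. No sample column was left unmapped (0).

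The deposited log2 values were fitted with limma 3.58.1 in R 4.3.3 (1 mean per group over 9 libraries, intensity trend, 6 residual degrees of freedom) and p-values adjusted by Benjamini-Hochberg over 10762 genes. The code was tested on simulated data. The contrast of libraries numbered 0 used group and number as terms. Alternatives were a block on the library number, other centring, no trend, only the groups compared, a filter of the lowest 25% of genes, a pseudocount of 1, and libraries left out. The labels do not state what the library numbers mark. Same-numbered libraries were treated as paired in the block, and not in the main hairpin comparisons. The block was used because deviations of same-numbered libraries from the group means correlated at 0.126 to 0.644 in all 9 pairs. These values were above a limit of 0.1 (other pairs -0.629 to 0.531). Library 1 of a group and library 2 of another correlated at 0.128 to 0.531, so this limit does not tell libraries 1 and 2 apart. Gene positions are from GENCODE M21 (GRCm38), matched by identifier, and figures were drawn with matplotlib 3.10.9 in Python 3.11.15.

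Values per library are given for members called in the average of both hairpins or with the same sign in each, for the 4 members with the smallest adjusted p between library numbers, and for the member with the largest average difference in each role without one. Eno1 was added after its values were seen. Up to 4 genes are named from each further list, by adjusted p. Promoters of Vegfa and Gbe1 were added to those with a core. The members and lists were chosen with earlier results of these data known. Levels are not compared between genes, since whether the values are per length is not given in the sources used here.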

Additional observations from a re-analysis of the deposited data

Results flagged for a closer look

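These results are given because an effect differed between groups or between library numbers. Pgm2l1 was 1.04 higher with shRNA2 than with shRNA1 (limma adjusted p = 0.0406), the hairpin lines having 1.60, 1.33 and 1.43 against 2.39, 2.68 and 2.40. With the library number as a block, Hk1 (-0.72) and Aldoc (-0.89) were lower with shRNA2 than with shRNA1.

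The hairpin difference in libraries numbered 0 exceeded that in libraries 1 and 2 for Gpi1 (0.45), Aldoa (0.36), Gapdh (0.27), Eno1 (0.39), Pkm (0.33) and Ldhb (0.40). It was smaller for Pdk1 (-0.68) and Ndrg1 (-0.75). Without control library 1 none of the 8 was called, and calls over all genes became fewer as well.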

How the results depend on the processing

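Counts of members called (higher, then lower) depended on the settings as follows, and the cause was not tested except that leaving libraries out leaves fewer samples. With the replicate block they were 6 and 4 for shRNA1, 5 and 6 for shRNA2, 6 and 9 for both, and 0 and 2 between hairpins. Beyond the calls named with their genes, the block changed no other call of a member printed here. It did change counts of the further lists for both hairpins, where 16.2% and 14.1% of all genes were called. They became 1 and 4 for glycolysis and pyruvate genes, and 1 and 2 for pentose phosphate genes. For HIF subunits and oxygen sensing they became 2 and 2, and for hypoxia-inducible genes 9 and 7. Without the libraries numbered 0 the counts of members were 8 and 13, 9 and 18, 10 and 16, and 2 and 6. Centring left 1 higher with shRNA2 (Gbe1 lost). Without the intensity trend 1 was lower with shRNA1, 1 higher and 1 lower with shRNA2, and 4 higher for both (Slc2a1 lost with each hairpin, Gbe1 lost with shRNA2, Pfkfb4 gained for both). With only the groups compared in the fit, 3 were higher and 1 lower with shRNA2 (Pfkm gained, Slc2a1 lost). That setting could not be fitted for both hairpins or the library numbers, which use all 9 libraries. Leaving out each library in turn gave 2 to 4 higher and 0 to 3 lower with shRNA1, 1 to 4 and 0 to 3 with shRNA2, 2 to 7 and 1 to 4 for both, 0 to 0 and 0 to 1 between hairpins, and 5 to 17 and 0 to 1 between library numbers. The count of 7 for both came without shRNA1 library 0. The same with the block, an alternative chosen after seeing the data, gave 4 to 7 and 1 to 7, 2 to 7 and 2 to 12, 4 to 10 and 2 to 13 (11 without shRNA1 library 0), and 0 to 0 and 0 to 4. The share of all genes called was not counted with centring, without the trend, with only the groups compared or with 1 library left out. Aldoa reversed from 0.00 to -0.12 for both hairpins without the libraries numbered 0. Read depth is unknown, so low values such as those of Aldoc and Pfkfb4 carry an unknown counting error.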
